A study of Mus musculus with 4 samples.

Results

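Heat shock chaperones were followed in microglia, the resident macrophages of the brain, through 10 genes of the single-cell matrix found by their symbols. They were Hspa1a, Hspa1b, Hspa8, Hsp90aa1, Hsp90ab1, Hsph1, Hspd1, Hspe1, Dnajb1 and Hspa9, and they made up 10 of the 19737 genes in the matrix. All 10 were present, and all 10 passed the filter on low counts that left 14058 genes for testing. The sums behind them held 150 UMIs (unique molecular identifiers, each counting 1 captured transcript) at the fewest, for Hspa1b in 1 mouse, and 212502 at the most, for Hsp90ab1.

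The study asked what an antibody that activates TREM2, a lipid-sensing receptor of microglia, does when it can cross the blood-brain barrier. 4D9 is such an antibody against mouse TREM2, and ATV:4D9 carries an Fc engineered to bind human transferrin receptor (TfR), which moves it into the brain. ATV:ISO is the isotype control with the same transport Fc. The deposited data label this arm ATV:DNP02, and taking that label for ATV:ISO is a reading made here. All 20 mice, controls included, were homozygous for the TfR mu/hu knock-in, which places the human apical domain in mouse TfR. WT;TfR mu/hu mice received ATV:ISO or ATV:4D9, and AppSAA;TfR mu/hu mice, homozygous for an App knock-in that carries familial Alzheimer's disease mutations, received ATV:ISO, 4D9 or ATV:4D9. The groups are called WT ATV:ISO, WT ATV:4D9, AppSAA ATV:ISO, AppSAA 4D9 and AppSAA ATV:4D9. Each had 4 mice, sampled 24 h after a single intravenous dose of 10 mg per kg. AppSAA mice were male and 8 months old in the study's reporting summary, which is unclear on whether this covers the WT mice, and 1 WT ATV:ISO mouse, of pool 4, is recorded as female. The texts differ on the sort, live CD11b+ or CD45+/CD11b+ cells, and on the tissue, cortex alone or with hippocampus. Each of 4 pools, tagged and sequenced together, held 1 mouse of every group, and mouse values below follow the order of pools 1 to 4.

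The matrix held 74758 cells, between 2193 and 6126 a mouse. Summed UMIs ran from 17150296 to 102446549 a mouse, and the median UMIs per cell were 6859 to 11552.5 in the 12 mice without ATV:4D9 against 13479 to 17290 in the 8 mice with it. All 8 microglial markers were detected, with a summed level of 22571 to 34077 CPM (UMIs of a gene per 1000000 UMIs of the same mouse). Neuron markers summed to at most 2.08 CPM and T and NK cell markers to at most 0.73 CPM. Of the other lists, border macrophage markers summed to 9.10 to 29.1 CPM, neutrophil markers to 3.98 to 22.4 CPM, monocyte markers to 3.88 to 12.9 CPM, endothelial and mural markers to 15.2 to 57.8 CPM, mostly Flt1, Pecam1 and Kdr with Cldn5 under 1 CPM, and B cell markers to 15.6 to 30.5 CPM, nearly all of it Cd79b. The oligodendrocyte sum of 79.4 to 119 CPM and the astrocyte sum of 60.9 to 164 CPM were mostly Cnp, Mbp and Mag, and Slc1a3, while Mog and Gfap stayed under 1 CPM. The mean share of mitochondrially encoded UMIs in a mouse's cells was 1.09% to 1.40% in pools 1 and 2 and 1.48% to 2.18% in pools 3 and 4. A barcode sequence occurred in more than 1 pool for 543 of 74212 sequences.

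Chaperones bind unfolded or newly made proteins and keep them from aggregating. In the cytosol HSP70 proteins take up such clients with the help of HSP40 proteins, nucleotide exchange factors release them, and HSP90 proteins finish the folding of many kinases and receptors. In mitochondria the HSP70 protein mortalin pulls in imported proteins and the HSP60 chamber with its HSP10 lid folds them. Heat shock factor 1 (HSF1) drives the stress-inducible members by binding heat shock elements, alternating GAA and TTC units, in their promoters. In microglia, isolation of the cells from tissue is itself known to raise some heat shock and immediate early genes.

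Hspa1a and Hspa1b, the stress-inducible HSP70 genes, lie on the minus strand of chromosome 17 at chr17:34969190-34972156 and chr17:34956436-34959238 (GRCm38). The promoters are shown because these neighbours moved apart from most other members, because Hspe1 shares its start region with Hspd1, and because Hsph1 also held heat shock element units. Each line gives the 250 bases before the start, 5′ to 3′ on the gene's strand, from RefSeq on GRCm38.p6, and capitals mark heat shock element units.
Hspa1a, chr17:34972157-34972406, minus strand: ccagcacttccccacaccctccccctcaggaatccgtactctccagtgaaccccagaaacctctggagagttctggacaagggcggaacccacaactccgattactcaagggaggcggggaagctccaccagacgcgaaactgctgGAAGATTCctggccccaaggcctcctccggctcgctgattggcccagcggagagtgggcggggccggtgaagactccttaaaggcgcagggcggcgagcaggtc
Hspa1b, chr17:34959239-34959488, minus strand: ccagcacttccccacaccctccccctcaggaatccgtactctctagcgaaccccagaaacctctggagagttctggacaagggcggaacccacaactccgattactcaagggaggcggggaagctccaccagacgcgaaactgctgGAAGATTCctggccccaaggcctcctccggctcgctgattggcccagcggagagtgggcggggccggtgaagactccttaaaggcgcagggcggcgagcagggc
Hspe1, chr1:55087898-55088147, plus strand: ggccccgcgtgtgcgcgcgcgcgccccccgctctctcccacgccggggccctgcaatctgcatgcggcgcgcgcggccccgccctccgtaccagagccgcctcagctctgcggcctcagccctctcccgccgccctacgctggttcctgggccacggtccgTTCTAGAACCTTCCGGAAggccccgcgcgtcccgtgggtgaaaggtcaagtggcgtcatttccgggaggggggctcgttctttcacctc
Hsph1, chr5:149636337-149636586, minus strand: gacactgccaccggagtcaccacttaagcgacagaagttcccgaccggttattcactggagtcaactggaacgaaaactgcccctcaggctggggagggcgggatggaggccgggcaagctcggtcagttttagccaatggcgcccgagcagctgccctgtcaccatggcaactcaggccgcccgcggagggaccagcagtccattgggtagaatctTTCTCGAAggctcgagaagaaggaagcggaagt
The Hspa1a and Hspa1b promoters were identical at 247 of 250 positions (98.8%). Both held GAANNTTC once, beginning 104 bases before the start. The Hspe1 promoter held 2 overlapping matches of 3 units (GAANNTTCNNGAA and TTCNNGAANNTTC), the first base lying 89 bases before the start, and an Hspd1 start on the other strand reads the same stretch 144 bases upstream. The Hsph1 promoter held TTCNNGAA 33 bases before its start. Searched on both strands, 3 units occurred in 153 of 32851 RefSeq promoters of this length (0.466%) and 2 units (GAANNTTC or TTCNNGAA, also found inside every 3-unit match) in 4218 (12.8%). The RefSeq table gave 9 promoters for 6 of the 10 members. Neither of the Dnajb1 starts nor the other Hspd1 start held these letters. No entry was given for Hspa8, Hsp90aa1, Hsp90ab1 and Hspa9.

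With ATV:4D9, 6 of the 10 members were higher than with ATV:ISO in WT mice and 9 of 10 in AppSAA mice, and none was lower in either genotype (edgeR quasi-likelihood test, Benjamini-Hochberg adjusted over all 14058 genes tested, threshold 0.05). Hspa8, both HSP90 genes and the 3 mitochondrial genes rose in both genotypes, by 1.64 to 2.76 fold. Hspa1a, Hsph1 and Dnajb1 passed the test in AppSAA mice and not in WT mice, and Hspa1b passed in neither. These calls are from the fit without the pool. With the pool as a block, Hsph1 was also called higher in WT mice (edgeR adjusted p = 0.0344). Hspa1b was then called lower there (edgeR adjusted p = 0.0094), where 39.0% of all genes were called lower. The tests of the difference between the genotypes, without and with the pool as a block, are given further on. Over all genes tested, 30.8% were called higher and 32.5% lower in WT mice, and 27.9% and 27.1% in AppSAA mice. The median log2 fold change of the members was 0.91 in WT and 0.98 in AppSAA mice, beside -0.05 and -0.03 over all genes tested. A sum over the cells of a mouse cannot tell apart more cells of a type from more of an RNA per cell. The deposited clusters below were made from the expression of these same cells, so they do not settle this either.

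**Figure D1:**
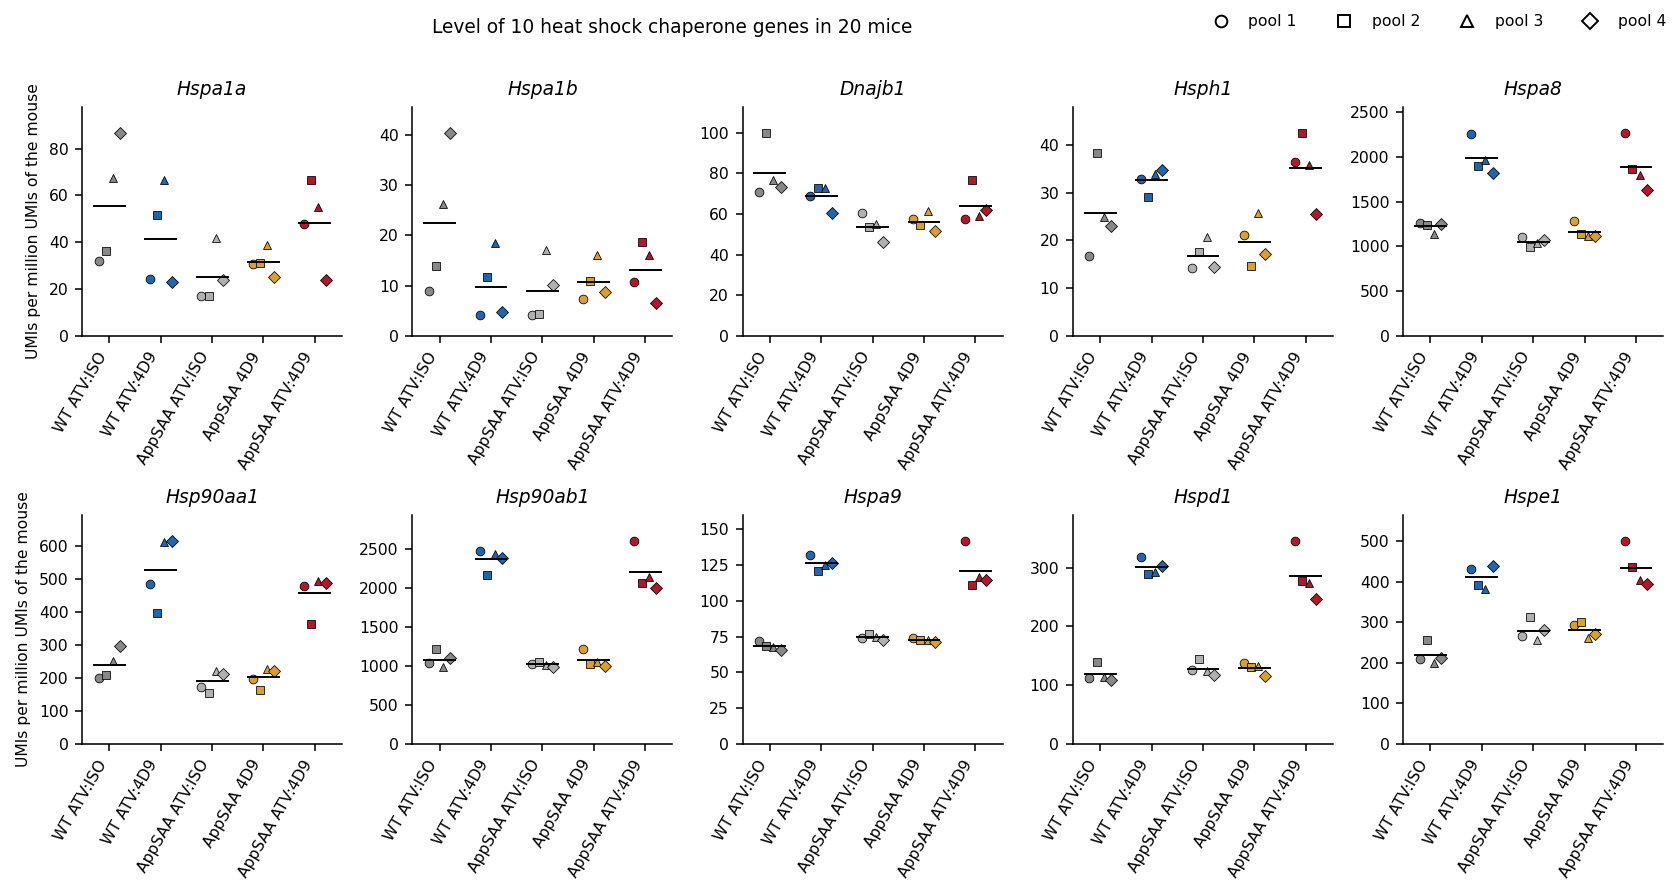
Level of each of the 10 members in CPM (vertical axes, linear, starting at 0) in each of the 20 mice of 5 groups (horizontal axes). Marker shapes stand for the pool and lines for the group mean. In Hspa8, Hsp90aa1, Hsp90ab1, Hspd1, Hspe1 and Hspa9 the 8 mice given ATV:4D9 lie above the 12 others, and in Hspa1a, Hspa1b and Dnajb1 the groups overlap.

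Hspa8 encodes HSC70, the HSP70 protein that cells make without stress. In WT mice its level was 1264, 1238, 1140.1 and 1247 CPM with ATV:ISO and 2249, 1902, 1963 and 1815 CPM with ATV:4D9. In AppSAA mice it was 1099.9, 989, 1035 and 1073 CPM with ATV:ISO, 1284, 1140.0, 1110.0 and 1114 CPM with 4D9 and 2270.5, 1866, 1795 and 1625 CPM with ATV:4D9. The lowest of the 8 ATV:4D9 mice (1625 CPM) stood above the highest of the 12 others (1284 CPM). The log2 fold change of ATV:4D9 against ATV:ISO was 0.82 (SE 0.13, edgeR adjusted p = 1.28e-05) in WT and 0.93 (SE 0.13, edgeR adjusted p = 4.24e-06) in AppSAA mice. Of 451 stretches of 50 bases in the last 500 bases of the Hspa8 transcript, 182 (40.4%) also occur in 10 other annotated genes, 140 of them in Gm8355, so its counts carry an uncertainty from shared reads. Hsp90ab1 shared 35 stretches (7.76%) with Gm6368, and the other 8 members shared none.

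Hspa1a varied 5.08 fold and Hspa1b 9.92 fold over the 20 mice, while the other members varied 2.17 to 4.03 fold. Hspa1a stood at 32.1, 36.1, 67.4 and 86.9 CPM in WT ATV:ISO and at 24.2, 51.6, 66.5 and 23.1 CPM in WT ATV:4D9 mice, which overlapped (log2 fold change -0.32, SE 0.36, edgeR adjusted p = 0.458). AppSAA mice stood at 17.1, 17.2, 41.9 and 23.8 CPM with ATV:ISO, at 30.8, 31.2, 38.7 and 25.3 CPM with 4D9 and at 48.0, 66.7, 54.9 and 23.7 CPM with ATV:4D9. The ATV:4D9 mouse of pool 4 lay within the ATV:ISO range and the other 3 lay above it. The rise with ATV:4D9 in AppSAA mice was 1.03 on the log2 scale (SE 0.36, edgeR adjusted p = 0.0204). The call ended when a single mouse was left out, at an adjusted p of 0.0605 without AppSAA ATV:ISO mouse 1, 0.0619 without AppSAA ATV:ISO mouse 2 and 0.0676 without AppSAA ATV:4D9 mouse 2.

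Hspa1b encodes nearly the same protein as Hspa1a. Its level was 9.0, 13.9, 26.3 and 40.4 CPM in WT ATV:ISO and 4.1, 11.6, 18.5 and 4.7 CPM in WT ATV:4D9 mice. AppSAA mice showed 4.2, 4.3, 17.0 and 10.2 CPM with ATV:ISO, 7.4, 10.9, 16.1 and 8.6 CPM with 4D9 and 10.7, 18.8, 16.2 and 6.6 CPM with ATV:4D9. All 5 groups overlapped. In WT mice the log2 fold change of ATV:4D9 was -1.11 (SE 0.50, edgeR adjusted p = 0.0573), with ATV:4D9 lower in each of the 4 pools. A fit with the pool as a block gave -1.25 (edgeR adjusted p = 0.0094) and called Hspa1b lower, where 39.0% of all genes were called lower, and limma voom also called it (-1.26, adjusted p = 0.036). The call was also made without WT ATV:ISO mouse 1 (-1.35, edgeR adjusted p = 0.0263), without WT ATV:ISO mouse 2 (-1.27, edgeR adjusted p = 0.0457) and without WT ATV:4D9 mouse 3 (-1.61, edgeR adjusted p = 0.0113). Over the 8 fits without 1 mouse the log2 fold change ran from -1.61 to -0.67 and the edgeR adjusted p from 0.0113 to 0.281. In AppSAA mice the log2 fold change was 0.61 (SE 0.49, edgeR adjusted p = 0.304). With the UMIs of Hspa1a and Hspa1b summed as 1 gene it was 0.94 (edgeR adjusted p = 0.0461). Most of that sum is Hspa1a, with 2270 to 3918 UMIs in an AppSAA ATV:4D9 mouse beside 668 to 1100 of Hspa1b.

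Both genes also varied with the pool. The deviation from the group mean averaged -0.61, 0.00, 0.72 and -0.11 on the log2 scale in pools 1 to 4 for Hspa1b, and -0.24, 0.02, 0.47 and -0.26 for Hspa1a, so both were highest in pool 3. Hsp90aa1 varied with the pool too, lying below its group mean in pool 2 in all 5 groups (-0.29 on average), and the pool means of the other 7 members lay between -0.20 and 0.24. Over the 20 mice the levels of Hspa1a and Hspa1b correlated at r = 0.888, and their deviations from the group means at r = 0.944. These mice share 4 pools and differ in depth, so the correlations are a description. No 50-base stretch at their transcript ends was shared between them, so reads from these ends can tell the copies apart.

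Dnajb1 encodes the HSP40 co-chaperone that hands clients to HSP70. It stood at 70.7, 100.1, 76.8 and 73.4 CPM in WT ATV:ISO, at 68.8, 73.0, 72.8 and 60.6 CPM in WT ATV:4D9, at 60.6, 53.5, 55.2 and 46.1 CPM in AppSAA ATV:ISO, at 57.5, 54.7, 61.3 and 51.8 CPM in AppSAA 4D9 and at 57.5, 77.0, 59.2 and 62.2 CPM in AppSAA ATV:4D9 mice. The groups with and without ATV:4D9 overlapped in both genotypes. In WT mice the log2 fold change was -0.11 (SE 0.12, edgeR adjusted p = 0.447), and without deposited cluster 3, the cluster with the highest immediate early gene level, it turned to 0.38 (edgeR adjusted p = 0.015). Cluster 3 also had the highest mean Dnajb1 level. It held 35.8% of the cells of a WT ATV:ISO mouse on average and 4.56% of a WT ATV:4D9 mouse. Leaving it out thus takes more Dnajb1 from the ATV:ISO side, and the part of the immediate early genes was not tested. In AppSAA mice Dnajb1 was 0.31 higher (SE 0.12, edgeR adjusted p = 0.0327). That call ended without AppSAA ATV:ISO mouse 3 (adjusted p = 0.0697), AppSAA ATV:ISO mouse 4 (0.127), AppSAA ATV:4D9 mouse 1 (0.0508) or AppSAA ATV:4D9 mouse 2 (0.13).

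Hsph1 encodes HSP110, a nucleotide exchange factor for HSP70. Its level was 16.7, 38.4, 24.9 and 23.1 CPM in WT ATV:ISO and 32.8, 29.0, 34.0 and 34.7 CPM in WT ATV:4D9 mice. AppSAA mice showed 14.1, 17.6, 20.8 and 14.5 CPM with ATV:ISO, 21.2, 14.7, 25.7 and 17.1 CPM with 4D9 and 36.5, 42.6, 35.7 and 25.5 CPM with ATV:4D9. The AppSAA ATV:4D9 and ATV:ISO mice did not overlap, and the log2 fold change was 1.14 (SE 0.21, edgeR adjusted p = 1.14e-04). In WT mice the ATV:ISO mouse of pool 2 stood above all 4 ATV:4D9 mice, and the log2 fold change was 0.46 (SE 0.21, edgeR adjusted p = 0.0622). Without that mouse it was 0.73 (edgeR adjusted p = 0.0028), and with the pool as a block 0.47 (edgeR adjusted p = 0.0344). It also passed with RLE size factors (0.50), DESeq2 (0.50), limma voom (0.51), no filter (0.53) and without cluster 3 or cluster 4 (0.58 each). In all, 8 of 12 alternatives called it, and the others gave edgeR adjusted p-values up to 0.163. Without each mouse in turn, Hsph1 in WT mice ran from 0.32 to 0.73, with an edgeR adjusted p up to 0.196.

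The HSP90 genes, whose proteins fold kinases and steroid receptors, both rose. Hsp90aa1, the inducible isoform, stood at 201, 210.1, 253 and 296 CPM in WT ATV:ISO and at 486, 398, 612 and 618 CPM in WT ATV:4D9 mice. The AppSAA values were 172, 153, 221 and 213 CPM with ATV:ISO, 196, 164, 228 and 222 CPM with 4D9 and 479, 365, 496 and 489 CPM with ATV:4D9. No ATV:4D9 mouse overlapped with a mouse not given it. Hsp90aa1 rose by 1.26 on the log2 scale (SE 0.15, edgeR adjusted p = 3.29e-07) in WT and by 1.35 (SE 0.15, edgeR adjusted p = 2.21e-07) in AppSAA mice. Hsp90ab1, the constitutive isoform, averaged 1079 ± 99.8 CPM (SD, n = 4) in WT ATV:ISO, 2364 ± 137 CPM in WT ATV:4D9, 1017 ± 23.5 CPM in AppSAA ATV:ISO, 1071 ± 95.8 CPM in AppSAA 4D9 and 2196 ± 278 CPM in AppSAA ATV:4D9 mice. Its log2 fold change was 1.25 (SE 0.12, edgeR adjusted p = 3.61e-08) in WT and 1.19 (SE 0.12, edgeR adjusted p = 1.17e-07) in AppSAA mice, again with no overlap.

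The mitochondrial chaperones rose together. Hspd1, the HSP60 chamber, stood at 112, 139, 114 and 109 CPM in WT ATV:ISO and at 318, 289, 293 and 303 CPM in WT ATV:4D9 mice. In AppSAA mice it stood at 126, 144, 124 and 118 CPM with ATV:ISO, at 137, 130.2, 132 and 116 CPM with 4D9 and at 346, 277.5, 273 and 247 CPM with ATV:4D9. The lowest ATV:4D9 mouse (247 CPM) was above the highest other mouse (144 CPM). Its log2 fold change of 1.46 in WT mice (SE 0.14, edgeR adjusted p = 1.26e-08) was the largest of the 10 members there, and in AppSAA mice it was 1.24 (SE 0.13, edgeR adjusted p = 2.01e-07). Hspe1, the HSP10 lid, lies head to head with Hspd1 at chr1:55088132-55091307 on the plus strand, with Hspd1 at chr1:55077835-55088243 on the minus strand. It averaged 219 ± 25.5 CPM (SD, n = 4) in WT ATV:ISO and 411 ± 28.3 CPM in WT ATV:4D9 mice (log2 fold change 1.02, SE 0.13, edgeR adjusted p = 7.95e-07). In AppSAA mice it averaged 279 ± 24.4 CPM with ATV:ISO, 281 ± 18.3 CPM with 4D9 and 434 ± 48.7 CPM with ATV:4D9 (log2 fold change of ATV:4D9 against ATV:ISO 0.71, SE 0.13, edgeR adjusted p = 8.65e-05). Hspa9, mortalin, stood at 72.2, 68.3, 67.5 and 65.5 CPM in WT ATV:ISO and at 132, 121, 125 and 126 CPM in WT ATV:4D9 mice, a 2.00-fold rise (SE 0.10 on the log2 scale, edgeR adjusted p = 6.46e-08). In AppSAA mice it stood at 74.1, 77.1, 75.1 and 72.4 CPM with ATV:ISO and at 142, 111, 116 and 115 CPM with ATV:4D9, a 1.71-fold rise (SE 0.10 on the log2 scale, edgeR adjusted p = 2.73e-06). In all 3 genes the 8 ATV:4D9 mice stood above the 12 others.

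**Figure D2:**
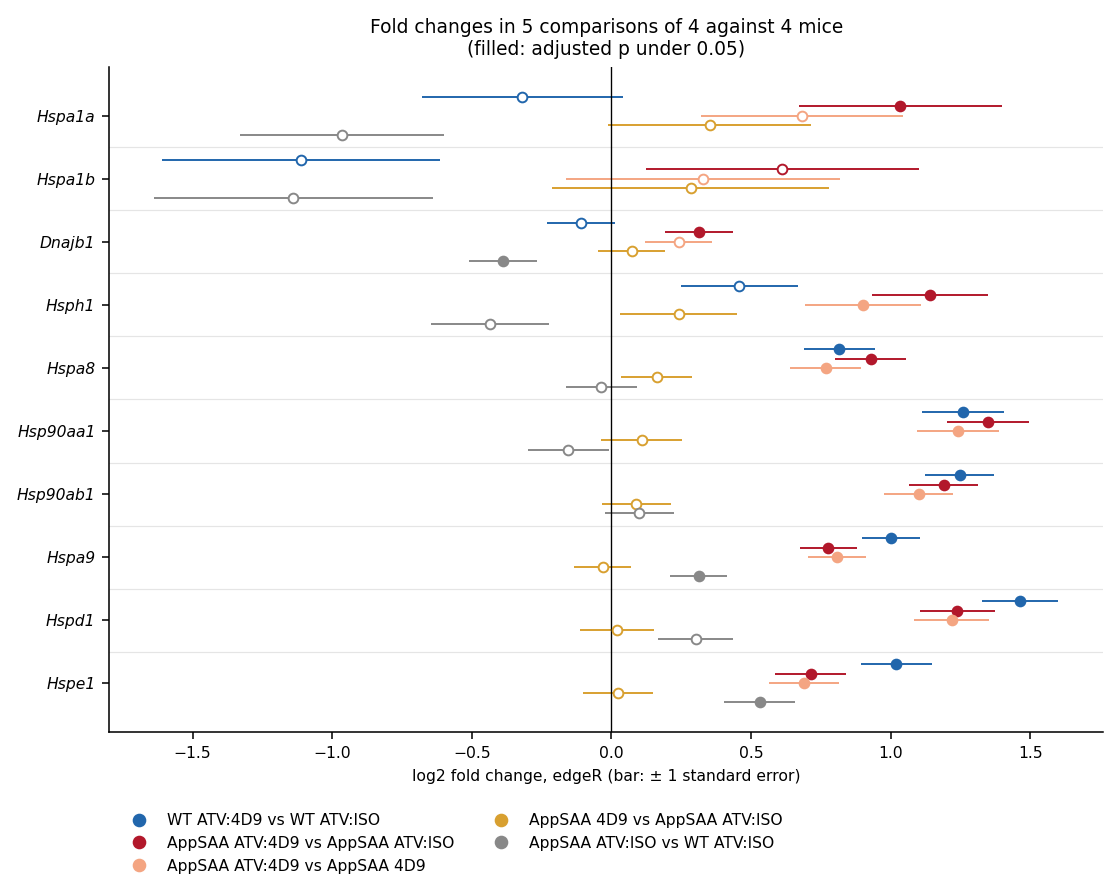
Log2 fold change (horizontal axis) of each member (rows) in 5 comparisons of groups (colours), with bars of 1 SE. Filled points have an edgeR adjusted p under 0.05, and 6 of 10 members are filled for ATV:4D9 against ATV:ISO in WT and 9 of 10 in AppSAA mice.

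Without overlap between the groups, 6 members were higher with ATV:4D9 in WT mice, where 24.3% of all genes tested were, and 7 in AppSAA mice, where 22.9% were. Leaving out the mouse recorded as female changed no member's call in the WT comparison. Other gene groups moved with the same contrast. All 14 cell cycle genes rose in both genotypes (median log2 fold change 3.54 in WT and 2.40 in AppSAA mice), Pcna by 2.70 and 2.03. Their summed level was 167 to 227 CPM in WT ATV:ISO, 1593 to 1826 CPM in WT ATV:4D9, 223 to 264 CPM in AppSAA ATV:ISO, 224 to 284 CPM in AppSAA 4D9 and 1174 to 1402 CPM in AppSAA ATV:4D9 mice. Of 17 immediate early genes, which cells switch on within minutes of a stimulus, 2 rose and 8 fell in WT mice and 1 rose and 7 fell in AppSAA mice. Jun fell by 0.76 and by 0.69, while Fos stood at -0.09 and -0.01 and did not pass the test. Their summed level was 16601 to 19373 CPM in WT ATV:ISO against 10887 to 13844 CPM in WT ATV:4D9 mice, and 13267 to 18912 CPM in AppSAA ATV:ISO against 11645 to 13760 CPM in AppSAA ATV:4D9 mice. Of the 8 microglial markers, 6 fell in WT and 5 in AppSAA mice. Of the 4 monocyte markers, 1 rose and 1 fell in WT mice and 1 rose and 3 fell in AppSAA mice, in the latter at a summed 3.88 to 9.94 CPM with ATV:ISO and 9.42 to 12.9 CPM with ATV:4D9. Of 4 tested endothelial and mural markers, 1 fell in WT mice and 1 rose and 2 fell in AppSAA mice, and their summed level was 24.5 to 31.5 CPM with ATV:ISO and 15.2 to 19.8 CPM with ATV:4D9 in WT mice and 42.6 to 57.8 and 22.0 to 38.9 CPM in AppSAA mice. Of 5 oligodendrocyte markers, 2 fell in WT mice and 1 rose and 1 fell in AppSAA mice, and of 5 astrocyte markers 1 fell in WT mice, where their sum was 136 to 164 CPM with ATV:ISO and 60.9 to 75.3 CPM with ATV:4D9. Of 2 tested neuron markers, 1 fell in WT mice and 1 rose and 1 fell in AppSAA mice, and no tested border macrophage, neutrophil or B cell marker passed in either genotype. The part of these groups in the chaperone differences was not tested. Fits without a deposited cluster follow, but clusters 3 and 4 were unequally shared between the groups. Leaving one out therefore changes the mix of cells more on one side, and such a fit cannot show that part. Without cluster 3, which held the highest immediate early gene level, 8 members were higher in WT and 9 in AppSAA mice, where 33.5% and 28.3% of all genes were, with median log2 fold changes of 1.04 and 1.02. Cluster 4, which held the highest cell cycle level, was left out as a check chosen after seeing the data. Without it 7 members were higher in WT and 8 in AppSAA mice, where 31.1% and 26.2% of all genes were, with median log2 fold changes of 0.96 and 1.05.

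Cells of ATV:4D9 mice held more UMIs of any kind, so the members were also scaled to the number of cells. On that scale the median log2 fold change of all genes tested was 0.79 in WT and 0.47 in AppSAA mice, and 68.2% and 52.1% of them were called higher. The members called higher numbered 8 in WT and 9 in AppSAA mice. Per 100 cells, Hspa8 averaged 1052 UMIs in WT ATV:ISO, 3315 in WT ATV:4D9, 1208 in AppSAA ATV:ISO, 1377 in AppSAA 4D9 and 3237 in AppSAA ATV:4D9 mice. The per-cell log2 fold change of Hspd1 was 2.31 in WT and 1.74 in AppSAA mice, 1.52 and 1.27 above that of the median gene. Hsph1 in WT mice passed per cell (1.31). Hspa1a and Dnajb1 changed sign with the scale in WT mice. Dnajb1 was at -0.11 per UMI and 0.74 per cell (edgeR adjusted p = 9.3e-06), near the median gene, and Hspa1a at -0.32 and 0.48. Hspa1b stayed below the median gene on both scales, at -1.11 per UMI and -0.31 per cell. Without TMM factors, which ran from 0.848 to 1.16, the median gene stood at -0.17 in the WT and -0.10 in the AppSAA comparison, in place of -0.05 and -0.03 with them. The CPM values printed here are without these factors.

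**Figure D3:**
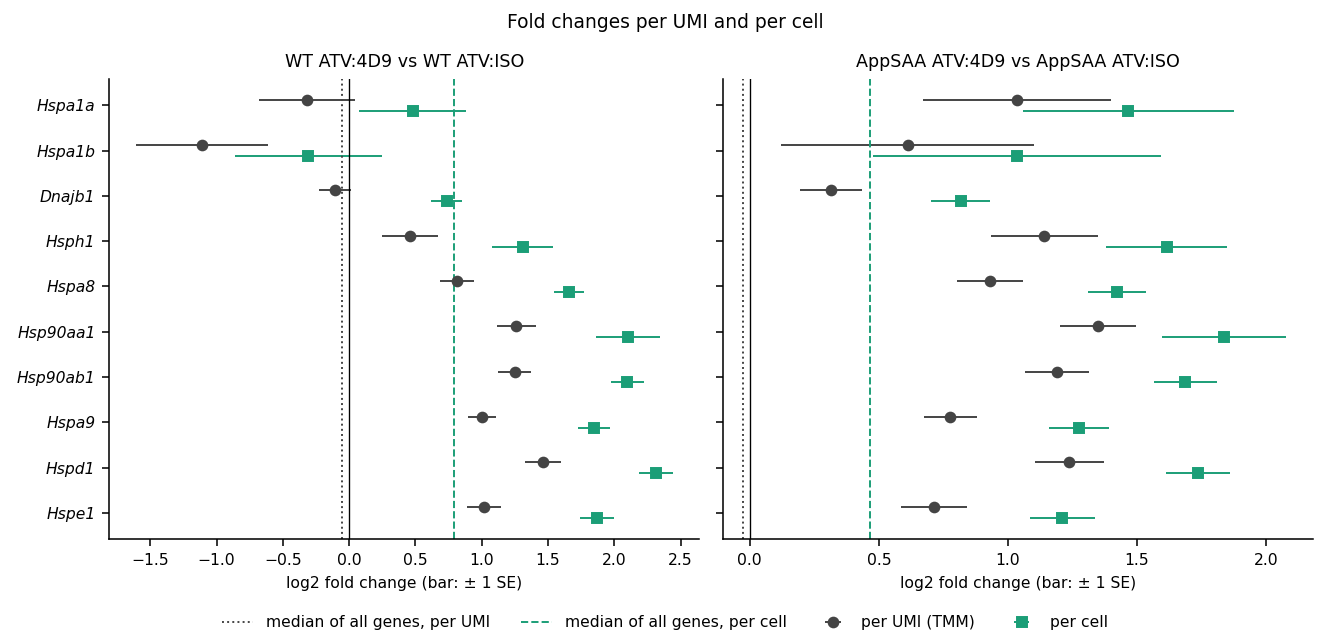
Log2 fold change of ATV:4D9 against ATV:ISO for each member on 2 scales, per UMI and per cell (points, with bars of 1 SE), in WT (left) and AppSAA mice (right). Dashed and dotted lines mark the median of all genes tested on each scale, 0.79 per cell in WT and 0.47 in AppSAA mice, and Dnajb1 in WT mice lies at the per-cell median.

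The difference between the genotypes under the isotype was read from AppSAA ATV:ISO against WT ATV:ISO mice. The part of amyloid in it was not tested, and the age of the WT mice is unclear. Here 2 members were higher and 1 lower, where 14.4% of all genes tested were called higher and 13.7% lower. Hspe1 rose by 0.53 on the log2 scale (SE 0.13, edgeR adjusted p = 0.0034), from 210.4, 257, 199.9 and 210.6 CPM in WT to 266, 312, 256 and 280.4 CPM in AppSAA mice, where the highest WT mouse stood just above the lowest AppSAA mouse. Hspa9 rose by 0.31 (SE 0.10, edgeR adjusted p = 0.0283). Dnajb1 fell by 0.39 (SE 0.12, edgeR adjusted p = 0.0205). In CPM, the AppSAA mice stood above the WT mice without overlap in 1 member, Hspa9, where 9.5% of all genes did, and below them in 2, Hspa8 and Dnajb1, where 30.6% of all genes did. The Hspe1 call held without each mouse in turn, and the others did not. The Hspa9 call ended without WT ATV:ISO mouse 3 (adjusted p = 0.0757), WT ATV:ISO mouse 4, which is the mouse recorded as female (0.0833), AppSAA ATV:ISO mouse 1 (0.0595) or AppSAA ATV:ISO mouse 2 (0.0859). The Dnajb1 call ended without WT ATV:ISO mouse 2 (0.116), AppSAA ATV:ISO mouse 4 (0.0772) or deposited cluster 3 (0.126).

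The remaining members of that comparison did not pass the test. Hspa1a was at -0.97 (SE 0.37, edgeR adjusted p = 0.054) and Hspa1b at -1.14 (SE 0.50, edgeR adjusted p = 0.0949). Hspa1a passed it without WT ATV:ISO mouse 1 (adjusted p = 0.0327), WT ATV:ISO mouse 2 (0.0425) or AppSAA ATV:ISO mouse 3 (0.0167), and Hspa1b without WT ATV:ISO mouse 1 (0.0499) or AppSAA ATV:ISO mouse 3 (0.0297). Without each mouse in turn, Hspa1a ran from -1.30 to -0.68, with an edgeR adjusted p up to 0.212. Hspa1b ran from -1.63 to -0.69, with an edgeR adjusted p up to 0.365. Hspd1 was at 0.30 (SE 0.13, edgeR adjusted p = 0.0983) and passed without WT ATV:ISO mouse 2 (0.0423). The Hspd1 values without each mouse in turn ran from 0.22 to 0.40, with an edgeR adjusted p up to 0.290. Hsph1 was at -0.44 (adjusted p = 0.133), Hsp90aa1 at -0.15, Hsp90ab1 at 0.10 and Hspa8 at -0.04. In a fit with the pool as a block, Hspd1 (0.30, adjusted p = 0.0125), Hspa1a (-1.04, adjusted p = 0.0132) and Hspa1b (-1.24, adjusted p = 0.0167) also passed, so 3 members were higher and 3 lower where 21.5% and 29.4% of all genes were. With library sizes alone, a check chosen after seeing the data, 1 member was higher and 4 were lower, where 10.8% and 37.5% of all genes were. Scaled to the number of cells, 4 members were higher, namely Hspe1 (0.77), Hspa9 (0.55), Hspd1 (0.53, edgeR adjusted p = 0.0023) and Hsp90ab1 (0.33, edgeR adjusted p = 0.0472), and none was lower, where 22.9% and 1.49% of all genes were and the median gene was at 0.18. Without cluster 3 Hspd1 also passed (0.44, edgeR adjusted p = 0.0105). In the same comparison 10 of 14 cell cycle genes rose, 4 immediate early genes rose and 1 fell, and 6 of 8 microglial markers fell. Of the markers of other cells, 1 endothelial and mural, 1 oligodendrocyte and 1 monocyte marker rose, and 1 each of the endothelial and mural, oligodendrocyte, astrocyte, neuron and B cell markers fell. The part of these groups in the values was not tested.

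The comparisons within AppSAA mice set the 4D9 group beside the ATV:ISO and the ATV:4D9 groups. They share the AppSAA ATV:4D9 or the AppSAA ATV:ISO mice with the comparison above. No group received an isotype without the transport Fc. 4D9 against ATV:ISO therefore differs in both TREM2 binding and the Fc, and is not the effect of 4D9 alone. ATV:4D9 against 4D9 differs in the Fc. The study reports more antibody in the brain with the transport Fc at the same dose. It also reports that at matched brain levels ATV:4D9 raised the microglial protein IBA1 and 4D9 did not. For its antibody against human TREM2, it reports that TfR binding enhanced TREM2 clustering and signalling in cultured cells. The part of brain exposure or of TfR binding in that comparison was not tested. 4D9 against ATV:ISO gave no call among the members or among all genes tested by edgeR (0.0% called), with 79 genes (0.562%) and no member at an unadjusted p under 0.05. That share is far below the one this threshold passes when nothing differs. The fit without the pool was thus conservative here, and the lack of calls is weak evidence that nothing differed. DESeq2 called 1 gene, and limma voom called 0. Hspa8 was at 0.16 on the log2 scale (SE 0.13, edgeR adjusted p = 1.00), although its 4 4D9 mice all stood above its 4 ATV:ISO mice in CPM, which 0.32% of all genes did. With the pool as a block Hspa8 was at 0.15 (SE 0.066), and each member had an edgeR adjusted p of 0.9999. The share of all genes called in that fit is not given here. Hspa1a was at 0.35 (SE 0.36) and Hspa9 at -0.03 (SE 0.10). ATV:4D9 against 4D9 gave 7 members higher, where 27.6% of all genes tested were, and none lower, where 26.7% were. Hspa8 rose by 0.77 (edgeR adjusted p = 4.05e-05), Hsp90aa1 by 1.24 (edgeR adjusted p = 6.76e-07), Hsp90ab1 by 1.10 (edgeR adjusted p = 3.45e-07), Hsph1 by 0.90 (edgeR adjusted p = 0.0011), Hspd1 by 1.22 (edgeR adjusted p = 2.61e-07), Hspe1 by 0.69 (edgeR adjusted p = 1.23e-04) and Hspa9 by 0.81 (edgeR adjusted p = 1.76e-06). Hspa1a at 0.68 (adjusted p = 0.118), Hspa1b at 0.33 (adjusted p = 0.60) and Dnajb1 at 0.24 (adjusted p = 0.098) did not pass. Hspa1a passed without AppSAA ATV:4D9 mouse 4 (0.94, edgeR adjusted p = 0.0312), and Dnajb1 with the pool as a block (edgeR adjusted p = 0.0131), where 34.2% of all genes were called higher. Both also passed per cell (Hspa1a 1.12, edgeR adjusted p = 0.0255, and Dnajb1 0.70, edgeR adjusted p = 2.9e-05), where 9 members and 49.0% of all genes were higher, and without cluster 3 (1.07, edgeR adjusted p = 0.0183, and 0.63, edgeR adjusted p = 3.3e-04). In 6 of the 7 the groups did not overlap, which 23.0% of all genes showed, and Hsph1 overlapped.

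Under ATV:4D9, AppSAA and WT mice gave no member call by edgeR, where 7.84% of all genes tested were called higher and 3.98% lower. No member had an unadjusted p under 0.05, which 3227 of the 14058 genes (23.0%) had. Hspa1b was at 0.59 (SE 0.49), Hspe1 at 0.22 (SE 0.13, edgeR adjusted p = 0.318) and Hsp90aa1 at -0.06 (SE 0.14). The change with ATV:4D9 was also compared between the genotypes as an interaction, AppSAA minus WT. By edgeR 0 members passed, where 3.79% of all genes were called higher and 5.35% lower, and 4 had an unadjusted p under 0.05, as did 3041 of the 14058 genes (21.6%). These 4 were Hspa1b at 1.72 (SE 0.70, edgeR adjusted p = 0.142), Hspa1a at 1.35 (SE 0.51, edgeR adjusted p = 0.111), Hsph1 at 0.68 (SE 0.29, edgeR adjusted p = 0.171) and Dnajb1 at 0.42 (SE 0.17, edgeR adjusted p = 0.14). Blocking on the pool, Hspa1b (1.97, edgeR adjusted p = 0.0126), Hspa1a (1.49, edgeR adjusted p = 0.0177) and Dnajb1 (0.42, edgeR adjusted p = 0.0088) passed, where 16.9% of all genes were called higher. Hspa1a also passed without AppSAA ATV:ISO mouse 3 (1.69, edgeR adjusted p = 0.0451). The mitochondrial members were at -0.23 for Hspd1, -0.31 for Hspe1 and -0.22 for Hspa9, and Hspa9 passed without AppSAA ATV:4D9 mouse 1 (-0.36, edgeR adjusted p = 0.0339). Per cell the median gene was at -0.30, and Hspd1 (-0.58, edgeR adjusted p = 0.025), Hspe1 (-0.66, edgeR adjusted p = 0.014) and Hspa9 (-0.58, edgeR adjusted p = 0.022) passed, where 15.6% of all genes were called lower.

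Cells had been grouped by the authors into 6 deposited clusters, numbered 0 to 5 and without names. The grouping used the cells' own expression after integration, so levels between clusters are a description without a test. Clusters 0 and 3 held 60.4% and 35.8% of the cells of a WT ATV:ISO mouse on average and 3.11% and 4.56% of a WT ATV:4D9 mouse, in which clusters 2 and 4 held 47.8% and 40.0%. In AppSAA ATV:ISO mice cluster 1 held 38.3%, and in AppSAA ATV:4D9 mice cluster 2 held 35.4% and clusters 4 and 5 held 22.4% each. The immediate early gene sum was 35181 ± 3346 CPM in cluster 3 (SD, n = 20 mice) and 5736 to 13514 CPM on average in the others. The cell cycle sum was 3398 ± 601 CPM in cluster 4 (n = 16 mice) and 162 to 749.8 CPM in the others.

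The members had their highest levels in different clusters. The means that follow are over all mice with enough cells in a cluster, whatever their group, and the groups are unequally represented in them. Hspa8, Hsp90ab1, Hspd1, Hspe1 and Hspa9 had their highest mean in cluster 2, with Hspd1 at 274 ± 47.5 CPM there against 113 ± 11.6 CPM in cluster 0 (SD, n = 20 mice each). Hspe1 in cluster 5 (392 ± 87.1 CPM) and cluster 2 (396 ± 61.5 CPM) differed by less than their SD. Hsp90aa1 peaked in the cell cycle cluster 4, at 542 ± 135 CPM (n = 16), followed by 422 ± 73.4 CPM in cluster 2, and lay lowest in cluster 1, at 169 ± 21.4 CPM. Dnajb1 peaked in the immediate early gene cluster 3, at 104 ± 28.9 CPM, and lay lowest in cluster 1, at 34.1 ± 5.35 CPM. Hspa1a was highest in cluster 5, at 80.0 ± 41.5 CPM (n = 17), and lowest in cluster 1, at 19.5 ± 16.3 CPM, and Hspa1b ran from 25.9 ± 16.4 CPM in cluster 5 to 4.97 ± 3.02 CPM in cluster 1. Hsph1 reached 35.0 ± 10.8 CPM in cluster 5 and 34.9 ± 8.13 CPM in cluster 2. Within a single group the order could differ. In WT ATV:4D9 mice (n = 4) cluster 5 stood above cluster 2 for Hspa8 (2170 against 1931 CPM), Hsp90ab1 (2660 against 2403 CPM), Hspe1 (479 against 438 CPM) and Hsph1 (38.9 against 34.4 CPM). Hspd1 was highest in cluster 4 in both ATV:4D9 groups, at 316 against 304 CPM in cluster 2 in WT and 335 against 333 CPM in AppSAA mice, as was Hspa8 in AppSAA ATV:4D9 mice, at 2123 against 1991 CPM. In WT ATV:ISO mice, where clusters 4 and 5 held too few cells, Hspa1a and Hspa1b were highest in cluster 3 and Hsp90aa1 in cluster 2, and in WT ATV:4D9 mice Hspa1b was highest in cluster 0. Over all mice the highest over the lowest cluster mean ran from 1.73 fold in Hspe1 to 5.20 fold in Hspa1b.

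Per cell the order changed, with 7 members highest in cluster 4, Hspa1a and Hspa1b in cluster 5 and Hsph1 in cluster 2. Dnajb1 was among the 7, so its peak in cluster 3 is one of level relative to other genes. A level per cell also depends on how many UMIs of any kind the cells of a cluster hold. How many of all genes were highest in cluster 4 per cell was not counted. In the finer deposited clustering of 9 clusters, Dnajb1 peaked in cluster 2 of that set at 112 ± 34.0 CPM (SD, n = 20 mice) and Hspa1a in its cluster 5 at 84.0 ± 55.7 CPM (n = 19).

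**Figure D4:**
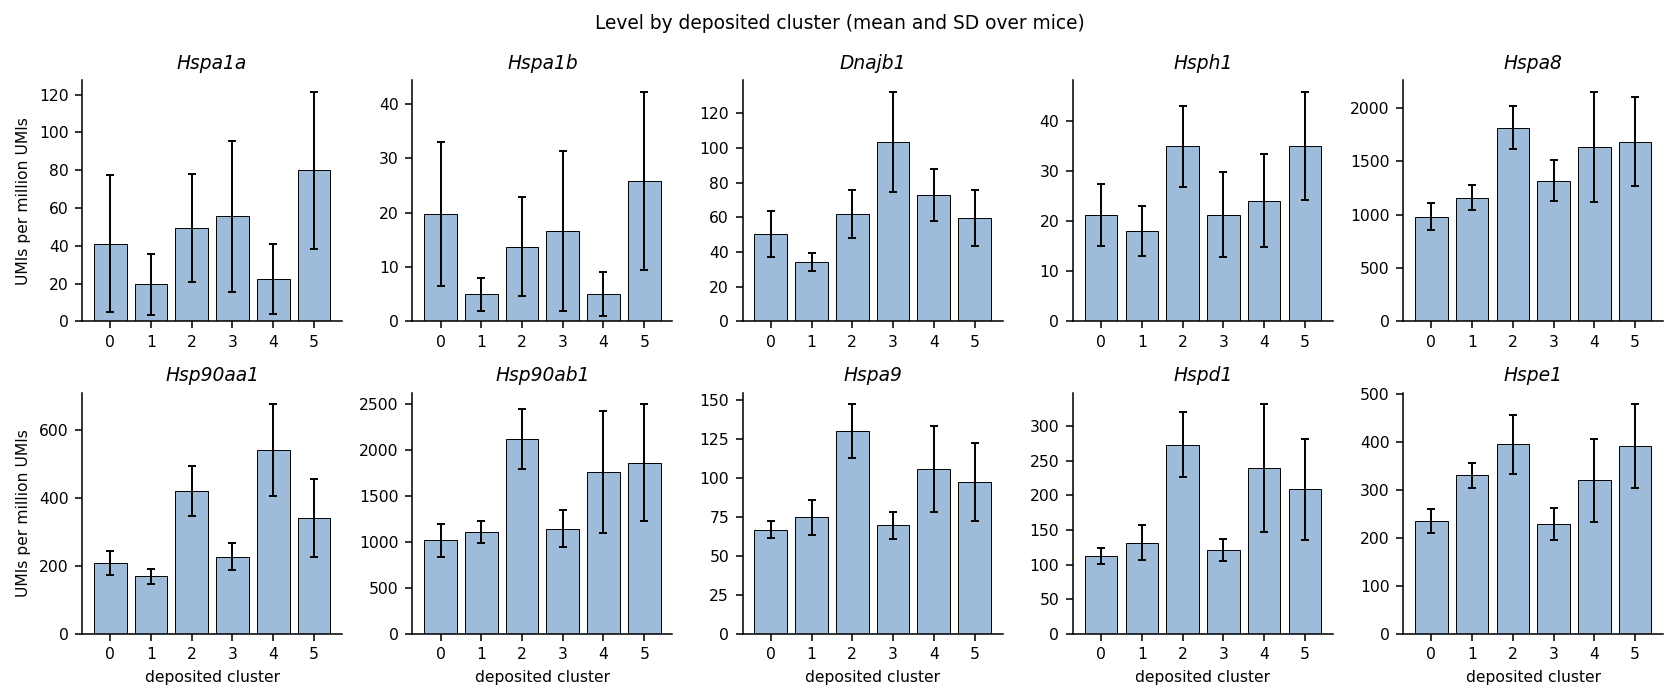
Mean level of each member in CPM (bars, starting at 0) in deposited clusters 0 to 5, with bars of 1 SD over mice that had at least 20 cells in the cluster (16 to 20 mice), over all groups together. On these means Hspd1 is highest in cluster 2, Hsp90aa1 in cluster 4 and Dnajb1 in cluster 3, and single groups could differ.

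Since the cluster shares differed between the groups, the ATV:4D9 comparison was repeated inside each cluster, on sums of at least 20 cells a mouse. Among AppSAA mice the members higher with ATV:4D9 numbered 8 of 10 in cluster 4, 7 in cluster 5, 4 in cluster 2, 3 in cluster 3, 1 in cluster 0 and 0 in cluster 1. Over all genes tested in those clusters 13.0%, 15.7%, 6.89%, 3.37%, 0.53% and 1.06% were called higher. No member was lower in any of the 6, where 11.5%, 13.9%, 6.3%, 0.963%, 0.137% and 0.451% of the genes tested were, in the same order. The cells behind a mouse sum were few on one side, with 27 to 74 ATV:ISO cells in cluster 4, 46 to 233 in cluster 5 and 75 to 172 in cluster 2. ATV:4D9 cells numbered 37 to 195 in cluster 0 and 68 to 268 in cluster 3. The precision therefore differs between clusters, and no difference between clusters was tested. A cell's cluster was also decided by its own expression, which ATV:4D9 may change. These comparisons therefore describe cells placed in the same cluster and cannot tell a changed mix of cells from more RNA per cell.

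In cluster 4, Hspd1 stood at 335 ± 41.2 CPM with ATV:4D9 and at 145 ± 23.4 CPM with ATV:ISO in AppSAA mice (log2 fold change 1.19, SE 0.14, edgeR adjusted p = 9.33e-07). Hsp90ab1 rose by 1.08 there (edgeR adjusted p = 1.00e-06), Hsph1 by 1.00, Hspa8 by 0.91, Hspe1 by 0.71, Hspa9 by 0.67 and Hsp90aa1 by 0.61. Hspa1a was at 37.8 ± 12.7 CPM against 9.12 ± 7.94 CPM (log2 fold change 1.65, SE 0.48, edgeR adjusted p = 0.0146), a call that ended without AppSAA ATV:ISO mouse 4 (1.48, edgeR adjusted p = 0.0745). In 1 of the ATV:ISO mice that sum held 1 Hspa1a UMI, and the log2 fold change was 2.59 without AppSAA ATV:ISO mouse 3. Only Hspa1b and Dnajb1 of the 10 were not called in cluster 4. In cluster 5, Hsp90ab1 and Hspd1 rose by 0.99 each, Hsp90aa1 by 0.88, Hspa8 by 0.71, Hspe1 by 0.69, Hsph1 by 0.58 and Hspa9 by 0.49. The Hsph1 call (edgeR adjusted p = 0.0325) ended in 5 of the 8 fits without 1 mouse, at adjusted p-values of 0.0542 without AppSAA ATV:ISO mouse 1, 0.0956 without mouse 2 and 0.0702 without mouse 4 of that group, and 0.0552 and 0.0916 without AppSAA ATV:4D9 mice 1 and 2. The Hspa9 call ended without AppSAA ATV:ISO mouse 3 (0.0602).

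In cluster 2, Hsph1 rose by 0.65, Hsp90ab1 by 0.53, Hspe1 by 0.49 and Hspd1 by 0.46. Of these, Hspd1 lost its call without AppSAA ATV:ISO mouse 3 (adjusted p = 0.108), AppSAA ATV:ISO mouse 4 (0.0567) or AppSAA ATV:4D9 mouse 1 (0.0864), and Hsph1 without AppSAA ATV:ISO mouse 4 (0.0988). In cluster 3, Hsp90ab1 rose by 0.66 (edgeR adjusted p = 0.0016), Hspe1 by 0.50 (edgeR adjusted p = 0.0139) and Hspa8 by 0.47 (edgeR adjusted p = 0.0352). The Hspa8 call ended in 5 of the 8 fits without 1 mouse, those without AppSAA ATV:ISO mice 2, 3 and 4 and AppSAA ATV:4D9 mice 1 and 2, at adjusted p-values of 0.0695 to 0.205. The Hspe1 call ended without AppSAA ATV:ISO mouse 3 (0.0606) or AppSAA ATV:4D9 mice 1 (0.0795) or 2 (0.0582). In cluster 0 Hsp90ab1 rose by 0.59 (edgeR adjusted p = 0.0177), and this call ended without AppSAA ATV:ISO mice 2 (0.0611), 3 (0.0557) or 4 (0.0612) and without AppSAA ATV:4D9 mice 1 (0.118) or 2 (0.051). In cluster 1 no member had an unadjusted p under 0.05, which 10.3% of all genes tested there had. Blocking on the pool added Hspa8 (edgeR adjusted p = 6.7e-04) and Hspe1 (0.0021) in cluster 0, Hspa8 (0.0089) and Hsp90aa1 (0.0045) in cluster 2, Hspd1 (0.0013) in cluster 3 and Dnajb1 (0.0361) in cluster 4. The members called there were then 3, 6, 4 and 9, where 3.54%, 12.6%, 8.26% and 16.0% of all genes were called higher.

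**Figure D5:**
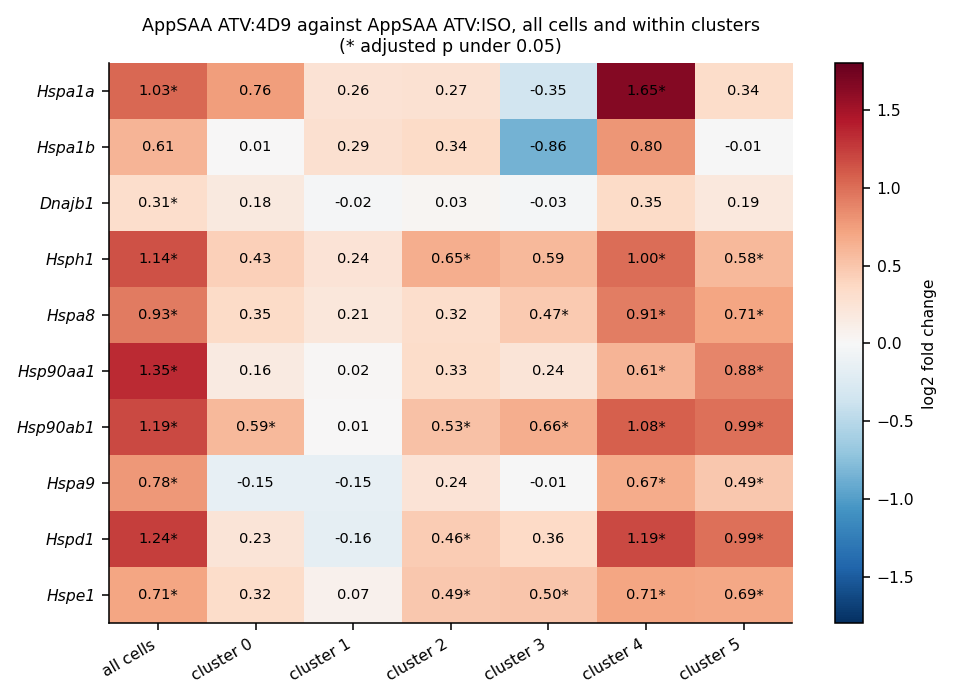
Heat map of the log2 fold change of AppSAA ATV:4D9 against AppSAA ATV:ISO mice (colour) for the 10 members (rows) over all cells and inside deposited clusters 0 to 5 (columns). Asterisks mark an edgeR adjusted p under 0.05 and stand on 8 members in cluster 4, 7 in cluster 5 and none in cluster 1.

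In WT mice only clusters 0, 2 and 3 had enough mice in both arms. The mouse sums again rested on few cells on one side, with 60 to 186 ATV:4D9 cells in cluster 0, 23 to 42 ATV:ISO cells in cluster 2 and 104 to 242 ATV:4D9 cells in cluster 3. There 0 members were called by edgeR in each, where 1.01%, 3.19% and 4.15% of all genes tested were called higher and 0.453%, 2.69% and 2.02% lower. At an unadjusted p under 0.05 there were 1, 2 and 2 members, beside 13.0%, 20.6% and 20.5% of all genes. With the pool as a block Hspe1 was called higher in all 3 clusters (adjusted p = 6.9e-04, 0.0185 and 7.8e-04) and Hsp90ab1 in clusters 0 (0.0416) and 3 (0.0013), where 5.2%, 5.84% and 10.1% of all genes were called higher. Hsp90aa1 in cluster 2 averaged 420 CPM in WT ATV:ISO and 457 CPM in WT ATV:4D9 mice, beside 240 and 528 CPM over all their cells. AppSAA ATV:ISO against WT ATV:ISO mice gave 0 member calls by edgeR in clusters 0 to 3, where 0.222%, 0.55%, 0.229% and 0.172% of all genes tested were called higher and 0.0513%, 0.665%, 0.052% and 0.0172% lower. At an unadjusted p under 0.05 there were 3, 1, 0 and 2 members, beside 4.52%, 11.4%, 10.2% and 3.88% of all genes. Only 3 WT ATV:ISO mice had at least 20 cells in cluster 1, with 27 to 62 cells each, and cluster 2 held 23 to 42 cells a WT mouse. Blocking on the pool, Hspa8, Hsp90aa1, Hsp90ab1 and Hsph1 were lower in AppSAA mice in cluster 0, Hspa1a in cluster 1 and Hsp90aa1 in cluster 3, where 1.56%, 1.36% and 0.679% of all genes were called lower.

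Other chaperones and their partners were read from 7 lists of 78 genes, of which 76 were tested. In WT mice 40 rose and 12 fell with ATV:4D9 (median log2 fold change 0.33), and in AppSAA mice 43 rose and 7 fell (0.34). Over all genes tested the shares were 30.8% higher and 32.5% lower in WT mice and 27.9% and 27.1% in AppSAA mice, against which the list counts below are to be read. All 8 subunits of CCT, the cytosolic chamber that folds actin and tubulin, rose in both genotypes, with medians of 0.97 and 0.82. Of 15 HSP90 co-chaperones, 9 rose and 2 fell in WT and 11 rose and 1 fell in AppSAA mice. Of 16 further mitochondrial chaperones and proteases, 8 rose and 2 fell in WT and 8 rose and 1 fell in AppSAA mice. Of 22 genes of the HSP70 family and its co-chaperones, 7 rose and 7 fell in WT mice, close to the shares over all genes, and 10 rose and 4 fell in AppSAA mice. Among 5 HSF factors and regulators 3 rose and 1 fell in WT mice and 1 rose in AppSAA mice, and of 4 tested small heat shock proteins 2 rose in WT and 1 in AppSAA mice. Of 6 prefoldin subunits, which pass clients to CCT, 3 rose in WT mice, and 4 rose and 1 fell in AppSAA mice.

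Among these, the largest rises in WT mice were those of Bag1, a nucleotide exchange factor for HSP70 (1.42, 314 against 128 CPM), Tcp1, a CCT subunit (1.13, 161 against 79.9 CPM) and Ptges3, the HSP90 co-chaperone p23 (1.05, 269 against 141 CPM). The largest falls there were those of Dnajb2 (-1.04, 10.6 against 23.5 CPM) and Dnajb4 (-0.70), both HSP40 proteins, and of Bag3, an HSP70 partner in autophagy (-0.47). In AppSAA mice Stip1, which links HSP70 to HSP90, rose most (1.20, 75.5 against 34.6 CPM), then Cct3 (1.07, 156 against 78.8 CPM) and Ptges3 (0.96), and Dnajb14 (-0.64), Dnajb2 (-0.58) and Dnajb4 (-0.47) fell. Against 4D9, 43 of the 76 were higher with ATV:4D9 and 8 lower, where 27.6% and 26.7% of all genes were, led by Stip1 (1.10), Cct3 (1.01) and Cct6a (0.95), with falls in Dnajb2 and Dnajb14 (-0.66 each) and Dnajb4 (-0.48). 4D9 against ATV:ISO gave 0 of the 76 by edgeR.

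AppSAA ATV:ISO against WT ATV:ISO mice showed 8 of the 76 higher and 9 lower (median 0.02), where 14.4% and 13.7% of all genes were. Bag1 (0.79), Dnajb14 (0.76) and the prefoldin subunit Pfdn5 (0.69) rose most, and Chordc1 (-0.53), Ahsa2 (-0.51) and Ppp5c (-0.27), all HSP90 co-chaperones, fell. Under ATV:4D9 the genotypes differed in 4 of the 76, with Pfdn5 (0.50), Hscb (0.37) and Dnajb2 (0.28) higher and Bag4 (-0.21) lower in AppSAA mice, where 7.84% of all genes were higher and 3.98% lower. The interaction was called for 6 of the 76, higher for Bag3 (0.53), Dnajb2 (0.45) and Dnajc7 (0.28) and lower for Bag1 (-0.55), Dnajb14 (-0.48) and Fkbp5 (-0.44), where 3.79% and 5.35% of all genes were.

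For each member the tested gene outside the 10 whose log2 CPM followed it most closely over the 20 mice was sought among 8018 genes with a mean of at least 10 CPM. The mice share groups, pools and depth, so the values are descriptions. Hspa9 was followed most closely by Ndufa12 (r = 0.997), Hspd1 by Pno1 (0.994), Hsp90ab1 by Cct8 (0.994), Hspe1 by Cox7a2 (0.992), Hspa8 by Creld2 (0.989) and Hsp90aa1 by Tbl2 (0.987). Hsph1 was nearest to Dnaja1 (0.944) and Dnajb1 to Pak1 (0.851). Hspa1a and Hspa1b had no such near partner outside the members, with 0.641 for Pde4dip and 0.686 for Nsmaf. Among the members the closest pair was Hsp90ab1 and Hspd1 (0.991) and the least alike Hspa1b and Hspe1 (-0.335).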

How the data were processed

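Microglia of 20 mice were measured by 10x 3′ single-cell RNA sequencing. According to the study's methods and the submitters' processing notes, the authors used Cell Ranger 6.1.1 with the mm10 genome, told the mice of a pool apart by their CellPlex tags, and made the clusters with Seurat after integration. The deposited matrix holds UMI counts, not normalized, and the deposited annotation gives each cell's mouse, group, pool and cluster, and the authors' percent of mitochondrially encoded UMIs. Every deposited cell was kept, and no doublet caller was run. It was checked that the counts of all 74758 cells sum to the deposited totals. The 4 deposited libraries are the pools, and every mouse was mapped to its group by the annotation.

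Counts were summed per mouse, or per mouse and deposited cluster where at least 20 cells were present, and tested by the quasi-likelihood test of edgeR 4.0.16 (R 4.3.3) after filterByExpr and TMM scaling. P-values were adjusted by Benjamini-Hochberg across every gene in the fit, and a gene was called under 0.05. A total of 7 contrasts came from 1 fit over 5 groups of 4 mice without a pool term, and 13 comparisons were made within clusters with at least 3 mice a group. The study's methods name limma voom, which was run as an alternative beside DESeq2 1.42.0, other scalings and filters, the pool as a block and leaving out each mouse. The SE is the log2 fold change divided by the root of the F statistic. Scripts were tested on simulated data. Nothing beyond the mouse entered as a replicate.

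The pool pairs the mice, as each pool was tagged and sequenced together: deviations from the group means correlated in all 40 pairs of mice from 1 pool (r from 0.144 to 0.607, median 0.395), beside a median of -0.193 over 120 pairs from different pools.

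The members, the lists and the rules were chosen with earlier results of these data known. Named were the 10 members, from the other chaperone lists the 3 called genes that rose most and the 3 that fell most at a mean of at least 10 CPM, up to 3 genes of highest CPM from the immediate early and cell cycle lists, and the most alike gene of each member (log2 CPM with a prior count of 2, scaled by TMM factors over all genes, as in the deviations from group means). Marker genes other than these are named only as a check of the cells. Promoters were read from a RefSeq table of GRCm38.p6 and gene positions from GENCODE on GRCm38.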

Additional observations from a re-analysis of the deposited data

Results flagged for a closer look

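The 10 members were examined in 5 groups of 4 mice, and in 2 of these 50 sets a mouse stood apart from the other 3 by Dixon's criterion, which chance alone passes in about 1 of 20. Hsp90aa1 in AppSAA ATV:4D9 mice had its lowest value in pool 2, 365 CPM beside 479 CPM in the nearest mouse, a gap of 0.871 of the group's range. The gene lay below its group mean in pool 2 in all 5 groups, by -0.44 to -0.15 on the log2 scale. Hspd1 in WT ATV:ISO mice had its highest value in pool 2, 139 CPM beside 114 CPM in the nearest mouse, a gap of 0.843 of the range. The calls of both genes for ATV:4D9 against ATV:ISO held without these mice.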

How the results depend on the processing

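The 6 calls of Hspa8, Hsp90aa1, Hsp90ab1, Hspd1, Hspe1 and Hspa9 for ATV:4D9 against ATV:ISO held in both genotypes under each alternative run, which were RLE size factors, scaling to cells, no filter, a mean of at least 10 CPM, DESeq2, limma voom, the pool as a block, cells of 1000 to 25000 UMIs, either cluster left out, library sizes alone, Hspa1a and Hspa1b summed as 1 gene, and each mouse left out. Leaving out cluster 4 and library sizes alone were chosen after seeing the data. Calls that changed with a left-out mouse or with the block are given in the report, and the block changed no other call. Dnajb1 for ATV:4D9 against ATV:ISO in AppSAA mice also lost its call among cells of 1000 to 25000 UMIs, without cluster 4 and with library sizes alone, Dnajb1 under ATV:ISO per cell and among cells of 1000 to 25000 UMIs, and Hspa9 under ATV:ISO with library sizes alone. In all, 647 alternative values of the log2 fold changes kept direction and side of the threshold, 31 gained a call, 7 lost it and 11 reversed, and among fits without 1 mouse 609 kept it, 13 gained, 37 lost and 5 reversed. The cause of these changes was not tested.

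Requiring a mean of 10 CPM, which tests fewer genes, left 5908 of 8898 called genes in WT ATV:4D9 against ATV:ISO, 5121 of 7742 in the AppSAA counterpart, 5057 of 7633 in ATV:4D9 against 4D9 and 1077 of 1661 in AppSAA against WT under ATV:4D9. With the pool as a block, the called genes rose from 3960 to 7166 in AppSAA against WT under ATV:ISO, from 1661 to 4409 under ATV:4D9 and from 1285 to 4284 in the interaction. With library sizes alone they numbered 6787 under ATV:ISO and 2994 under ATV:4D9. Per cell they numbered 838 under ATV:4D9 and 2234 in the interaction, and 2009 in the interaction without cluster 3. Without 1 mouse, AppSAA against WT under ATV:4D9 gave 1104 to 1719. DESeq2 called 1 gene for 4D9 against ATV:ISO, where edgeR called 0. The block also raised the called genes within clusters, for AppSAA ATV:4D9 against ATV:ISO from 78 to 616 in cluster 0, 184 to 947 in cluster 1, 1269 to 2390 in cluster 2 and 504 to 1461 in cluster 3. For WT ATV:4D9 against ATV:ISO it raised them from 171 to 1045 in cluster 0, 566 to 1056 in cluster 2 and 717 to 2040 in cluster 3, and for AppSAA against WT under ATV:ISO from 32 to 539, 148 to 326, 27 to 128 and 22 to 191 in clusters 0 to 3. Without 1 mouse the AppSAA ATV:4D9 against ATV:ISO counts were 19 to 79 in cluster 0, 628 to 1352 in cluster 2, 314 to 472 in cluster 3 and 1696 to 2851 in cluster 5, those of WT ATV:4D9 against ATV:ISO 72 to 201, 342 to 584 and 468 to 808 in clusters 0, 2 and 3, and those of AppSAA against WT under ATV:ISO 18 to 35, 68 to 160, 6 to 35 and 8 to 22 in clusters 0 to 3. The median log2 ratio of the highest to the lowest cluster mean of a member was 1.17 in CPM and 2.13 per cell.

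Some directions reversed. In WT ATV:4D9 against ATV:ISO, Hspa1a was at 0.48 per cell and 0.15 without cluster 3, and Dnajb1 at 0.74 per cell and 0.38 without cluster 3, and from -0.16 to 0.030 without 1 mouse, above 0 without WT ATV:ISO mouse 2. In AppSAA against WT under ATV:ISO, Hspa8 was at 0.20 per cell, 0.012 without the filter, 0.16 without cluster 3, 0.0074 without cluster 4 and from -0.084 to 0.010 without 1 mouse (above 0 without WT ATV:ISO mouse 1), Hsp90aa1 at 0.076 per cell and Hsp90ab1 at -0.086 with library sizes alone. Hspa9 for 4D9 against ATV:ISO was at 0.0072 per cell and from -0.076 to 0.0083 without 1 mouse, above 0 without AppSAA ATV:ISO mouse 2. Hsp90aa1 in AppSAA against WT under ATV:4D9 ran from -0.19 to 0.040 without 1 mouse, at 0.016 without WT ATV:4D9 mouse 4 and 0.040 without AppSAA ATV:4D9 mouse 2.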
